A study of Caenorhabditis elegans with 6 samples.

Results

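Mitochondrial ribosomal protein genes are the nuclear genes named *mrpl* (large subunit) and *mrps* (small subunit), and 71 protein-coding genes of the 46904 genes listed carry such a name with a number. Of these, 42 are *mrpl* genes and 29 are *mrps* genes. They were picked by a rule on symbols, and that rule was set with earlier results of these data known. RNA on tagged ribosomes was sequenced from young adults of the *Caenorhabditis elegans* strain CLP1481. All animals of both groups carry the extrachromosomal array twnEx675, which joins Pgcy-8::gfp with Ptbh-1::rpl-22::3xHA, so that the *tbh-1* promoter drives an HA-tagged RPL-22; such arrays can be lost from single cells. Animals were cultured at 20 °C and then spent 6 h on bacteria, either on plates with ethanol (EtOH), the solvent control, for 3 libraries, or on plates with 4.5 µM antimycin A, which blocks complex III of the respiratory chain, for the other 3. The tagged ribosomes were captured through the HA epitope, so the values stand for RNA on cytosolic ribosomes of cells with an active *tbh-1* promoter and for RNA of other cells that came along. No sample of RNA from before the pull-down is part of the comparison. The question put to these genes is whether antimycin A changed their share of that RNA, with the large and the small subunit apart.

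Mitochondria keep ribosomes of their own, which translate only the few proteins encoded in mitochondrial DNA, all of them parts of the respiratory chain and the ATP synthase. Their RNA comes from mitochondrial DNA, but all of their proteins are encoded in the nucleus, translated on cytosolic ribosomes and imported. Some of these proteins have a counterpart in bacterial ribosomes and others are found only in mitochondria. In *C. elegans*, lowering mitochondrial ribosomal proteins by RNA interference, with *mrps-5* as the best known case, is known to extend lifespan and to set off the mitochondrial unfolded protein response.

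The *tbh-1* gene is known to be active in the RIC interneurons and in the gonadal sheath. It was read at 1455 to 2683 TPM (a gene's share of its library after scaling for transcript length) over the 6 libraries. The labels name the cells as neurons that express *tbh-1*, and markers of other tissues were read as well. None of 43 markers of 7 cell types was listed at 0 in any library. Markers said to have fallen or risen are calls of the fit described below. In that fit 6.47% of all genes tested fell and 14.2% rose. The summed level of 8 intestine markers was 11881 to 13424 TPM in EtOH and 3001 to 6484 TPM in antimycin A, and 6 of the 8 fell (by smallest p, *cpr-6*, *vit-2* and *ifb-2*) while 1, *ges-1*, rose. The sum of 10 pan-neuronal markers was 302 to 535 TPM and 565 to 885 TPM, and 2 of the 9 tested rose, *sbt-1* and *ida-1*. The sum of 4 gonadal sheath markers was 2794 to 4358 TPM and 4890 to 6545 TPM, with 0 called, and that of 10 germline and oocyte markers was 255 to 846 TPM and 282 to 624 TPM, with 0 called. The sum of 4 hypodermis markers was 323 to 381 TPM and 154 to 284 TPM, and of the 3 tested *col-19* fell and *dpy-7* rose. The sum of 4 body wall muscle markers was 452 to 597 TPM and 392 to 577 TPM and that of 3 markers of *tbh-1* cells 1617 to 1732 TPM and 1469 to 2702 TPM, with 0 called in either list. With the replicate number as a block in that fit, 7 of 8 intestine markers fell and 1 rose. Of the pan-neuronal markers tested 5 of 9 rose, as did 2 of 4 gonadal sheath markers. Of 10 germline and oocyte markers 1 fell and 1 rose, and the other lists kept their counts. Of all genes tested, 13.0% fell and 29.6% rose with the block. Ribosomal RNA took 11.2% to 15.1% of the EtOH libraries and 8.07% to 23.5% of the antimycin A libraries, with replicate 3 the highest. The part of these markers and of ribosomal RNA in the results below was not tested, and in pulled-down RNA fewer cells of a type and less RNA per cell cannot be told apart.

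Mitochondrial ribosomal protein genes fell in part after antimycin A and 0 rose. Of 42 *mrpl* genes tested, 16 fell, or 38.1%, and of 29 *mrps* genes 9 fell, or 31.0%. Over all 11099 genes tested, 6.47% fell (6.54% of the protein-coding genes) and 14.2% rose in the same fit (limma on log2(TPM + 1), a call being a Benjamini-Hochberg adjusted p below 0.05 over all genes tested). The members that fell included *mrpl-36*, *mrpl-14*, *mrps-28* and *mrps-18.C*, whose mean level in antimycin A was 34.7% to 40.3% of that in EtOH. Others, among them *mrps-5*, *mrps-2* and *mrpl-45*, were not called and had mean levels of 104%, 110% and 136% of EtOH. All 71 members passed the filter of 1 TPM in at least 3 libraries. The median log2 fold change was -0.64 for *mrpl* genes and -0.47 for *mrps* genes, where the median of all genes tested was 0.21. The fitted value was below 0 in 64 of the 71 members and in 34.8% of all genes tested. The count called depends on the libraries and on the pairing of the replicates. The replicate numbers pair the samples, and with the replicate number as a block 26 *mrpl* and 17 *mrps* genes fell and 0 rose (13.0% of all genes fell and 29.6% rose in that fit). Of the 25 members called, 10 remained called without EtOH replicate 2, 13 without EtOH replicate 3 and 10 with antimycin A replicate 2 left out. When both libraries numbered 1 were left out 20 of the 25 remained, and 8 remained when both numbered 3 were left out. When both numbered 2 were left out 0 remained (11 *mrpl* and 7 *mrps* genes were lower at an unadjusted p below 0.05). Fewer samples enter these fits, and the fits that leave out a pair have equal numbers of libraries. The cause of their different counts was not tested. Scalings that centre the libraries on each other gave higher counts, with 24 *mrpl* and 15 *mrps* genes lower after median-of-ratios scaling (11.1% of all genes) and 29 and 19 after quantile normalization (12.6% of all genes).

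The levels of the members in single libraries show the same contrast without a model. In 41 of 71 members, 25 *mrpl* and 16 *mrps*, every antimycin A library lay below every EtOH library, and in 0 members did every antimycin A library lie above. Among all genes tested, 11.6% had every antimycin A library below and 23.1% had every one above. Within the same-numbered pairs, 63 members were lower in antimycin A in pair 1, 60 in pair 2 and 67 in pair 3, where 43.0%, 29.0% and 39.8% of all genes tested were lower. Of the 71, 58 were lower in all 3 pairs (20.1% of all genes tested), 6 in 2 pairs, 4 in 1 pair and 3 in none. The median log2 ratio of the 71 genes was -0.44, -0.60 and -0.76 in pairs 1, 2 and 3, beside 0.11, 0.39 and 0.15 for all genes tested. The pairs ranked the members alike, with a Spearman rho of 0.75 to 0.79 between pairs across 71 genes, given as a description since genes of 1 library share its depth and its composition.

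**Figure D1:**
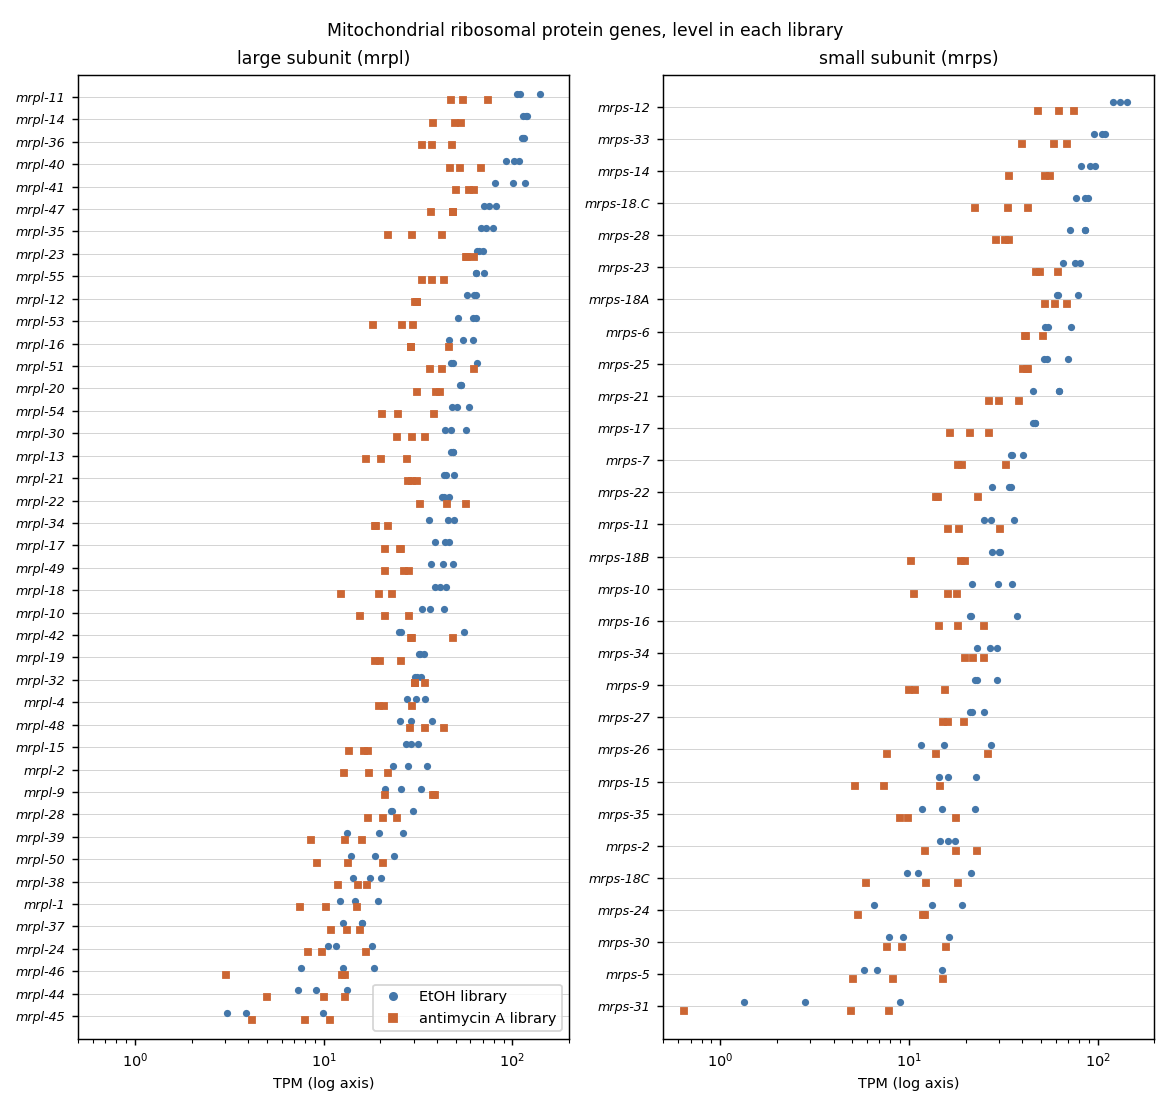
TPM of each of the 42 *mrpl* genes (left) and 29 *mrps* genes (right) on a log axis, with the 3 EtOH libraries as blue circles and the 3 antimycin A libraries as orange squares, genes ordered by their EtOH mean. In 25 *mrpl* and 16 *mrps* genes every square lies left of every circle, mostly in the upper part of each panel.

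In the large subunit, *mrpl-36* (WBGene00010783, WBcel235 chromosome III, 9847626 to 9848116), the counterpart of a very small bacterial protein, had the lowest fold change. It was read at 115, 114 and 113 TPM with EtOH (replicates 1, 2 and 3, here and below) and at 47.8, 33.3 and 37.5 TPM with antimycin A. The 3 EtOH libraries lay close to each other, far above every antimycin A library. It fell by 1.52 on the log2(TPM + 1) scale (SE 0.22, limma adjusted p = 7.34e-04), a scale that understates the change of low genes. *mrpl-14* (WBGene00018475, chromosome II, 7308702 to 7310115), the counterpart of a bacterial protein at the face that meets the small subunit, read 117, 113 and 120 TPM with EtOH and 53.7, 49.8 and 37.8 TPM with antimycin A. It fell by 1.31 (SE 0.21, limma adjusted p = 0.00172), and no antimycin A library came near an EtOH library. Both genes kept their call without any single library.

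*mrpl-12*, *mrpl-11* and *mrpl-10* encode the counterparts of proteins of the bacterial stalk and its base, where translation factors dock on the ribosome; *mrpl-12* and *mrpl-11* were called and *mrpl-10* was not. *mrpl-12* read 64.3, 62.4 and 57.4 TPM with EtOH and 31.4, 31.4 and 30.3 TPM with antimycin A. Its antimycin A libraries were almost equal, and it fell by 0.96 (SE 0.21, limma adjusted p = 0.00862). *mrpl-11*, the *mrpl* gene with the highest EtOH mean, read 140, 105 and 110 TPM with EtOH and 74.2, 47.5 and 54.5 TPM with antimycin A. It fell by 1.01 (SE 0.24, limma adjusted p = 0.0126), with the libraries numbered 1 the highest of both groups. Each of the pair lost its call without 1 of the 6 libraries (highest adjusted p 0.0565 and 0.0717). *mrpl-10* stood at 37.7 TPM ± 5.3 and 21.6 TPM ± 6.33 (-0.80 ± 0.28 SE, limma adjusted p = 0.0693, blocked 0.000326).

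Other *mrpl* genes called by the smallest p values were *mrpl-53*, *mrpl-35*, *mrpl-13* and *mrpl-34*. *mrpl-53*, for a protein found only in mitochondrial ribosomes, read 61.9, 51.6 and 64.1 TPM with EtOH and 26.0, 18.3 and 29.6 TPM with antimycin A, and fell by 1.25 (SE 0.25, limma adjusted p = 0.00597). *mrpl-35*, *mrpl-13* and *mrpl-34* stand for counterparts of bacterial proteins. *mrpl-35* stood at 73.2 TPM ± 5.65 and 31.2 TPM ± 10.3 (SD over 3 libraries each). *mrpl-13* stood at 48.1 TPM ± 0.579 and 21.6 TPM ± 5.66 and *mrpl-34* at 43.5 TPM ± 6.67 and 19.9 TPM ± 1.76, with no overlap between the groups in any of these 4 genes. *mrpl-40*, a mitochondria-specific protein gene among the 3 highest *mrpl* genes by mean level, fell from 101 TPM ± 7.77 to 56.0 TPM ± 11.2 (-0.86 ± 0.22 SE, limma adjusted p = 0.0199), a call that held in 3 of the 6 fits without 1 library.

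At the other end of the large subunit, 5 of 42 genes had a log2 fold change above 0 and none was called. The highest value was that of *mrpl-45*, whose mammalian counterpart ties the ribosome to the inner membrane. It read 9.92, 3.89 and 3.09 TPM with EtOH and 10.8, 7.95 and 4.18 TPM with antimycin A (0.44 ± 0.46 SE, limma adjusted p = 0.623). Its libraries overlapped, and within each number the antimycin A library was the higher. *mrpl-44*, for a protein with a ribonuclease III fold, read 13.3, 9.08 and 7.28 TPM and 13.0, 10.1 and 5.04 TPM (-0.12 ± 0.39 SE, adjusted p = 0.905 by limma). In both genes the library numbered 1 was the highest and the library numbered 3 the lowest of each group. Level was not enough to tell which members were called: *mrpl-23*, at 65.0, 70.0 and 66.3 TPM with EtOH and 56.8, 62.6 and 57.5 TPM with antimycin A, was not called (-0.18 ± 0.20 SE, limma adjusted p = 0.632), although its groups did not overlap. *mrpl-23* was chosen after its values were seen.

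**Figure D2:**
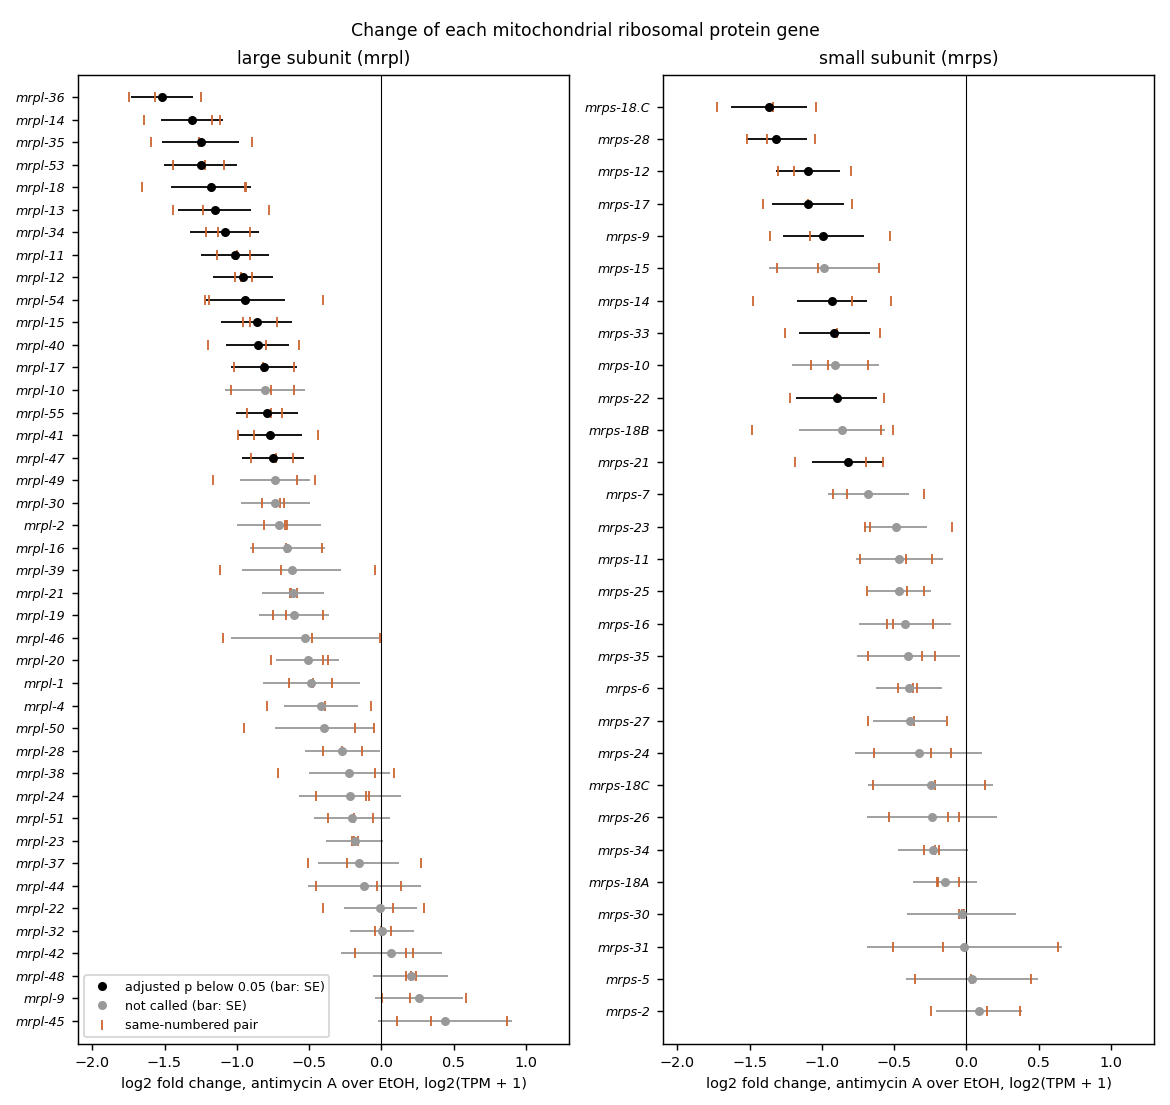
Log2 fold change of antimycin A over EtOH on the log2(TPM + 1) scale for each *mrpl* gene (left) and *mrps* gene (right), with the SE as a bar, black where the adjusted p was below 0.05 and grey otherwise, and the 3 same-numbered pairs as orange ticks. The 16 *mrpl* and 9 *mrps* genes called lie at -0.748 or below. Grey genes such as *mrps-15* (-0.98) and *mrpl-10* (-0.80) lie in the same range. Values above 0 reach 0.44 for *mrpl-45* and 0.09 for *mrps-2*.

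In the small subunit, *mrps-18.C* (WBGene00020499, chromosome II, 6736203 to 6736793) had the lowest fold change; its product belongs to the family of the bacterial protein S18. It read 88.9, 86.1 and 76.8 TPM with EtOH and 42.6, 33.5 and 22.6 TPM with antimycin A. It fell by 1.37 (SE 0.26, limma adjusted p = 0.00442), with the groups far apart and antimycin A replicate 3 the lowest. *mrps-28* (WBGene00012830, chromosome V, 19644239 to 19645758) read 71.5, 85.8 and 85.6 TPM with EtOH and 34.1, 32.4 and 29.2 TPM with antimycin A, and fell by 1.32 (SE 0.21, limma adjusted p = 0.00162). *mrps-12*, for the counterpart of a bacterial protein of the decoding centre, had the highest EtOH mean of all 71 members. It read 131, 143 and 121 TPM with EtOH and 74.9, 62.2 and 48.5 TPM with antimycin A. It fell by 1.10 (SE 0.22, limma adjusted p = 0.00606), and the highest antimycin A library lay well below the lowest EtOH library. These 3 genes kept their call without any single library.

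Further *mrps* genes that fell were *mrps-17*, from 46.2 TPM ± 0.654 to 21.4 TPM ± 5.01, *mrps-14*, from 89.8 TPM ± 7.65 to 47.6 TPM ± 12.0, and *mrps-33*, from 105, 110 and 95.9 TPM to 69.3, 58.5 and 39.7 TPM (SD over 3 libraries each). All but *mrps-33* of these and the next pair have bacterial counterparts. *mrps-9* fell from 24.8 TPM ± 3.85 to 12.1 TPM ± 2.96 and *mrps-21* from 56.8 TPM ± 9.91 to 31.7 TPM ± 5.97. Their limma adjusted p values were 0.0108 to 0.0402, and each lost its call in 2 or more of the 6 fits without 1 library. *mrps-22*, the other called gene of the subunit, lies 98 bp downstream of *dap-3* on the same strand of chromosome II. *dap-3*, for a mitochondrial ribosomal protein outside the *mrp* naming, stood at 26.6 TPM ± 7.36 and 17.7 TPM ± 6.87 and was not called (-0.59 ± 0.33 SE, limma adjusted p = 0.276, blocked 0.0101), and *mrps-22* fell from 32.2 TPM ± 3.99 to 17.2 TPM ± 5.19 (-0.90 ± 0.28 SE, limma adjusted p = 0.0460). The call of *mrps-22* held in 1 of the 6 fits without 1 library (highest adjusted p 0.191), and the difference between the neighbours was not tested.

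*mrps-5* (WBGene00008452, chromosome V, 12563487 to 12565785), the gene best known from lifespan studies, was not called. It read 14.9, 5.81 and 6.80 TPM with EtOH and 15.3, 8.27 and 5.09 TPM with antimycin A (0.04 ± 0.46 SE, limma adjusted p = 0.977). The groups overlapped and the library numbered 1 was the highest of each. Its SE was above those of all 25 called members, 0.21 to 0.28. *mrps-2* read 17.6, 16.1 and 14.7 TPM with EtOH and 23.0, 17.8 and 12.3 TPM with antimycin A (0.09 ± 0.30 SE, limma adjusted p = 0.907), and its antimycin A libraries enclosed the EtOH ones. After median-of-ratios scaling both values were negative, at -0.24 and -0.21. *mrps-31*, a mitochondria-specific member with the lowest mean of all 71, read 8.96, 2.83 and 1.34 TPM and 7.88, 4.94 and 0.642 TPM (-0.02 ± 0.68 SE, limma adjusted p = 0.994). *mrps-2* and *mrpl-4* are neighbours on the same strand, 105 bp apart; *mrpl-4*, at 31.1 TPM ± 3.48 and 23.3 TPM ± 5.27, was not called either (-0.42 ± 0.26 SE, limma adjusted p = 0.328).

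The names do not fix the subunit in every case. The deposited annotation describes *mrps-18C* as a large-subunit protein, and the mammalian counterparts of *mrps-18A* and *mrps-30* belong to the large subunit. None of these 3 genes was called, with log2 fold changes of -0.25, -0.15 and -0.03 and limma adjusted p values of 0.795, 0.747 and 0.977. Counted with the large subunit, they gave 16 of 45 genes lower there and 9 of 26 in the small subunit. The median log2 fold changes were then -0.61 and -0.59, where the names gave -0.64 and -0.47.

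Summed over the subunits, the level was lower in antimycin A in each pair. The 42 *mrpl* genes added up to 2102, 1861 and 1923 TPM with EtOH and 1430, 1149 and 1044 TPM with antimycin A, which is 61.6% of the EtOH mean. The 29 *mrps* genes added up to 1307, 1172 and 1213 TPM with EtOH and 905, 724 and 619 TPM with antimycin A, which is 60.9%. The antimycin A libraries lay below the EtOH libraries in both sums, and no p is given for a sum over genes. The ratio of the *mrpl* to the *mrps* sum was 1.59 with an SD of 0.0124 in EtOH and 1.62 with an SD of 0.0586 in antimycin A (3 libraries each), values whose spreads overlap. The 80 genes of cytosolic ribosomal proteins other than *rpl-22*, which the transgene holds, added up to 87255 to 104187 TPM in EtOH and 27813 to 45145 TPM in antimycin A, and 74 of the 79 tested fell, with the smallest p for *rpl-39*, *rpl-41.2*, *rpl-11.2* and *rpl-38*. The cytosolic sum was 30.6, 28.8 and 30.9 times that of the 71 mitochondrial genes with EtOH and 19.3, 14.8 and 17.6 times with antimycin A. All 3 antimycin A ratios lay below all 3 EtOH ratios, and the difference between the families was not tested.

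**Figure D3:**
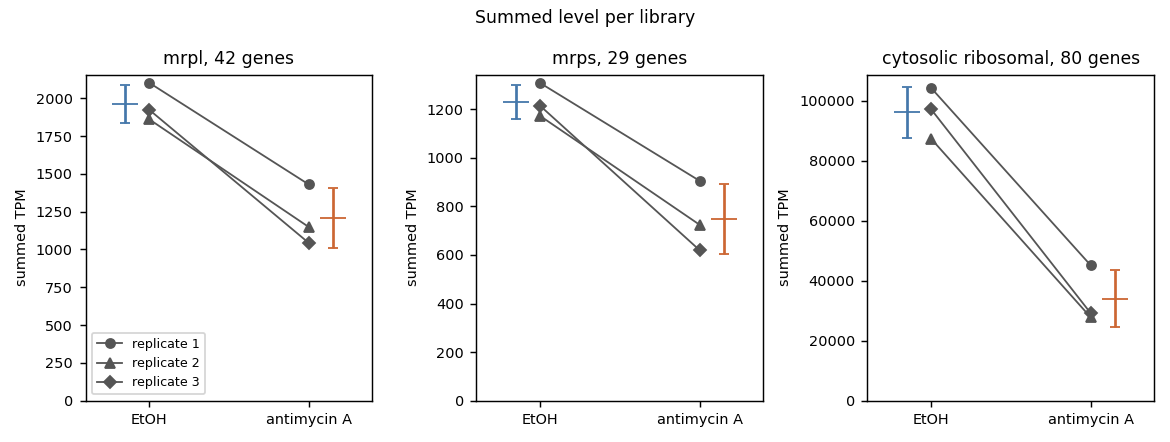
Summed TPM of the *mrpl*, *mrps* and cytosolic ribosomal protein genes in each library, same-numbered libraries joined by lines, with the mean and SD (n = 3) of each group beside them and all axes starting at 0. Each line goes down from EtOH to antimycin A; the *mrpl* sum goes from 1861 to 2102 TPM in EtOH to 1044 to 1430 TPM in antimycin A.

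The members called in the main fit were mostly those with a high level. In EtOH the means of the 71 genes ran from 4.38 to 132 TPM, a 30.1-fold range, and in antimycin A from 4.49 to 61.9 TPM, a 13.8-fold range. The order of the members was largely shared, with a Spearman rho of 0.91 between the means of the groups across 71 genes. Of 26 members with a mean over 40 TPM, 17 fell, where 19.2% of all genes at that level fell. Of 25 members at 20 to 40 TPM, 7 fell, beside 6.36% of all genes, and of 20 members under 20 TPM 1 fell, *mrps-9*, beside 2.89%. With the replicate block 22 of 26, 17 of 25 and 4 of 20 fell, beside 13.0% of genes at all levels. The median log2 fold changes were -0.84, -0.71 and -0.24 in the same order. Across the 71 members the log2 fold change and the mean level had a Spearman rho of -0.48, and across the 10834 protein-coding genes tested it was -0.02. These rho values are descriptions: genes of 1 library share its composition, and low genes have a larger relative error.

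By gene length, most of the members called in the main fit were short. Of 28 members that span up to 1000 bp from start to end, introns included, 15 fell, beside 12.0% of the protein-coding genes of that span. Of 27 members over 1000 and up to 2000 bp 8 fell, beside 7.60%, and of 16 members over 2000 bp 2 fell, *mrpl-15* and *mrps-14*, beside 4.52%. Span and level go together among the members (Spearman rho of -0.58 across 71 genes), so the one cannot be told apart from the other here. The rho between fold change and span was 0.33 across the 71 members and 0.04 across all protein-coding genes tested. With the replicate block 21 of 28, 17 of 27 and 5 of 16 members fell, from short to long span. Of genes of all spans, 13.0% fell in that fit.

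**Figure D4:**
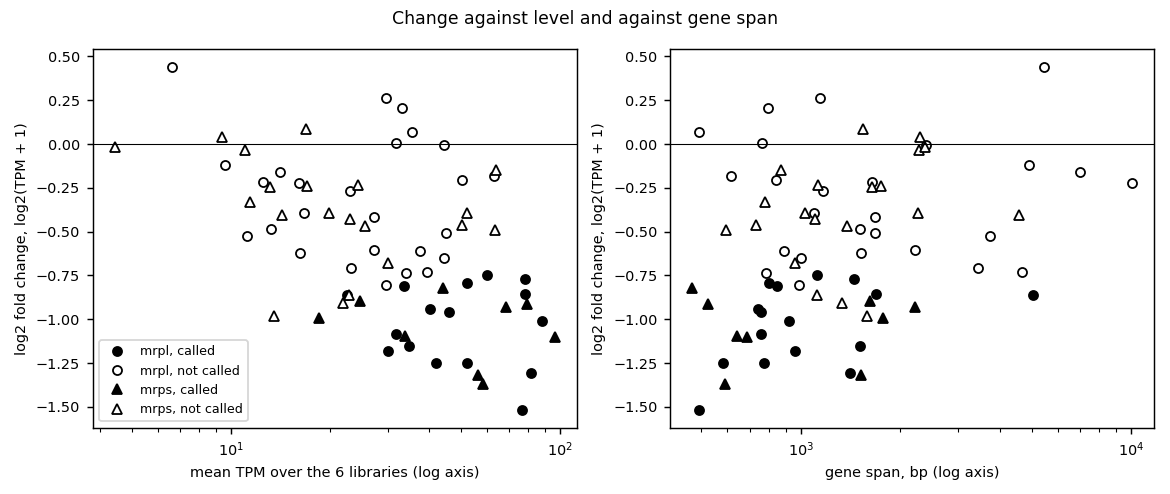
Log2 fold change of each member against its mean TPM over the 6 libraries (left) and against its gene span in bp (right), both on log axes, circles for *mrpl* and triangles for *mrps*, filled where the gene was called. Filled symbols, the 25 genes called in the main fit, gather at high level and short span. Of these, 17 have a mean over 40 TPM and 15 span up to 1000 bp.

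Members with a bacterial counterpart and members found only in mitochondria were both among the called genes. By family number, 45 members have a bacterial counterpart, taken as *mrpl* numbers up to 36 and *mrps* numbers up to 21 with *mrpl-47*, *mrps-24* and *mrps-28*, and 26 do not. Of the 45, 18 fell, with a median log2 fold change of -0.73, and of the 26, 7 fell, with a median of -0.40. Of all genes tested, 6.47% fell. With the replicate block the counts were 32 of 45 and 11 of 26, beside 13.0% of all genes. The classes also differed in median EtOH level, 43.1 and 28.5 TPM, and in median span, 1120 and 1485.5 bp. This split was made with the values known and was not tested.

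The members lie on all autosomes and none lies on the X chromosome. Chromosomes I to V hold 15, 13, 22, 11 and 10 of them, while the X chromosome holds 2789 of the 20191 protein-coding genes. Many *C. elegans* genes are transcribed in operons, and 27 of the 71 members have a protein-coding gene on the same strand ending within 500 bp upstream, beside 2386 of the 10834 protein-coding genes tested. Of those 27, 10 fell (37.0%), and of the other 44, 15 fell (34.1%), beside 6.54% of the protein-coding genes tested. Protein-coding genes with and without such a neighbour were not counted apart for calls. The locus of 16 members overlaps another gene with a mean of at least 1 TPM. Since the strand setting of the authors' counting is not given in the sources used here, reads of such overlapping genes cannot be told apart. Among the called genes these are *mrpl-12*, *mrpl-14*, *mrpl-34*, *mrpl-35*, *mrpl-53* and *mrpl-54*, and the genes that overlap them have means of 3.36 to 6.94 TPM, below those of the members.

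Other lists of mitochondrial translation are small, and their counts stand beside 6.47% of all genes tested that fell and 14.2% that rose, or 13.0% and 29.6% with the replicate block. At these shares a list of 5 or 11 genes can hold few calls, and nothing is read from their number. Of 5 matched mitochondrial translation factor genes, 0 were called by limma, 0 had an unadjusted p below 0.05, and 1 was lower and 1 higher with the replicate block. *tufm-1*, for the elongation factor that brings transfer RNA to the ribosome, stood at 38.8 TPM ± 10.4 and 41.9 TPM ± 18.8 (0.05 ± 0.33 SE, limma adjusted p = 0.957). *tsfm-1*, for its exchange factor, stood at 34.5 TPM ± 11.6 and 47.1 TPM ± 11.9 (0.45 ± 0.29 SE, limma adjusted p = 0.358, blocked 0.0257). *tufm-2*, for a second form of the elongation factor, stood at 17.3 TPM ± 9.66 and 11.6 TPM ± 4.63 (limma adjusted p = 0.520, blocked 0.0493). Of 11 matched mitochondrial transfer RNA synthetase genes 0 were called (1 at an unadjusted p below 0.05), with a median of -0.13. With the block *sars-2* was higher (16.7 TPM ± 3.78 and 27.9 TPM ± 6.94, blocked adjusted p = 0.00192) and *pars-2* lower (10.7 TPM ± 1.66 and 6.97 TPM ± 0.181, blocked adjusted p = 0.0423).

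Of 8 genes of mitochondrial DNA and RNA upkeep, 1 fell and 0 rose. The gene was *mtss-1*, for the single-stranded DNA binding protein of mitochondria, which went from 95.2 TPM ± 9.68 to 53.3 TPM ± 8.95 (-0.83 ± 0.22 SE, limma adjusted p = 0.0220). *hmg-5*, for the main DNA packaging protein of mitochondria, read 27.6, 16.9 and 18.5 TPM with EtOH and 31.3, 23.7 and 24.6 TPM with antimycin A (limma adjusted p = 0.489). *hoe-1*, for the ribonuclease that trims transfer RNA ends, stood at 7.73 TPM ± 3.41 and 16.9 TPM ± 4.83 (1.07 ± 0.36 SE, limma adjusted p = 0.0624, blocked 6.51e-05). Each *hoe-1* library in antimycin A was higher than its EtOH partner.

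The RNA that mitochondrial ribosomes contain and translate followed the replicate number more than the treatment. The 12 protein genes of mitochondrial DNA added up to 3286, 1635 and 457 TPM with EtOH and to 2712, 1362 and 392 TPM with antimycin A. Within each number this sum was lower in antimycin A, at 82.5%, 83.3% and 85.9% of EtOH in pairs 1, 2 and 3. These differences were small beside the distance between numbers. The fitted log2 fold change was below 0 in 5 of the 12 genes. Limma called 0 of the 12 (0 at an unadjusted p below 0.05), and 2, *ctb-1* and *ctc-3*, were lower with the block. The small-subunit RNA gene *MTCE.7* read 33.2, 15.6 and 2.91 TPM with EtOH and 26.8, 9.38 and 7.37 TPM with antimycin A. Together with the large-subunit RNA gene *MTCE.33* the sums were 54.2, 23.9 and 5.47 TPM and 48.0, 16.4 and 11.5 TPM. Neither gene was called (limma adjusted p = 0.986 and 0.958), and their TPM come from RNA of the pull-down, not from a preparation of mitochondrial ribosomes.

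The authors' deposited table, from a test of their own, has q below 0.05 with a lower level in antimycin A for 42 of the 71 members, 25 *mrpl* and 17 *mrps*, and with a higher level for 0. Over all genes listed in the authors' deposited table, 2.94% have q below 0.05 with a lower level, and 11.7% of the genes tested here do. The 42 include all 25 members called here.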

How the data were processed

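TPM values for 46904 genes in 6 libraries were deposited by the authors in 1 table; 3 further tables of the same-numbered pairs were not used here. The submitters' processing notes name genome build WBcel235 and the tools DESeq2 1.28.1, StringTie 2.1.4, HISAT2, Trimmomatic 0.36 and bcl2fastq 2.20. The authors' table also holds mean and SD, and a fold ratio, its log2, a p-value and a q-value, deposited by the authors from their own comparison. Values at 1e-04 TPM stand for no signal and were set to 0. TPM keep no depth, so depth is unknown and intervals for counting error cannot be given. Columns of other samples numbered 0.

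As the values are TPM, no count test was run. Genes that reached 1 TPM in 3 or more libraries were tested on log2(TPM + 1), a pseudocount of 1, with limma 3.58.1 in R 4.3.3, using its trend option and no term but the group, as the design foresaw for TPM. Adjusted p values are Benjamini-Hochberg values over all genes tested. The code was tested on simulated data. Tables and figures were made with Python 3.11.15, pandas 2.3.3, numpy 2.4.6 and matplotlib 3.10.9.

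The design text says that each independent experiment gave 1 library of either group. Same-numbered libraries deviated together from their group means (r = 0.68, 0.31 and 0.59 across genes). The main fit has no term for these pairs, so its calls and p values do not use the pairing. Among the fits, only that with the replicate block treats each pair as 1 experiment. Blocking on the replicate number leaves few residual degrees of freedom, so a blocked p rests largely on variance shared across genes. The labels do not say more on how animals were pooled.

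The members, lists and splits were chosen with earlier results of these data known. Named genes are, in each subunit, the 8 smallest p values, the 3 highest and 2 lowest mean levels, the highest and the lowest fold change, and *mrps-5*; of other lists, up to 4 called genes by smallest p. Other names were chosen after their values were seen. Of the listed genes of mitochondrial translation and upkeep, 9 symbols were absent from the table and left out. Alternatives were other pseudocounts, filters and scalings, the replicate block, and libraries or pairs left out.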

Additional observations from a re-analysis of the deposited data

How the results depend on the processing

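Over all genes, 718 were lower and 1579 higher. Without 1 library the lower count ranged from 410 to 705 and the higher count from 768 to 2059. The lower count was 1227 after median-of-ratios scaling, 1398 after quantile normalization and 1442 with the replicate block, which gave 3282 higher. Without both libraries numbered 1 the counts were 674 and 1226. Without both libraries numbered 2 they were 162 and 391, and without both numbered 3 they were 372 and 964. The 16 *mrpl* genes lower became 29 after quantile normalization, 26 with the replicate block and 6 to 14 without 1 library. They became 13 without both libraries numbered 1, 0 without both numbered 2 and 5 without both numbered 3. The 9 *mrps* genes lower became 5 with no filter on low values, 15 after median-of-ratios scaling, 19 after quantile normalization, 17 with the replicate block, 3 to 10 without 1 library, 0 without both libraries numbered 2 and 3 without both numbered 3. Fewer samples enter the fits that leave libraries out, and the cause of the differences between fits was not tested. In none of the fits named here was a member called higher. The log2 ratio of the summed *mrpl* level, -0.70, was -1.04 after median-of-ratios scaling and -0.84 to -0.61 without 1 library; that of *mrps*, -0.72, was -1.06 and -0.87 to -0.60.

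Of 22 named members, 17 were called. Among these 22 the sign turned only in 4 that were not called. With 1 library left out, *mrpl-44* ranged from -0.38 to 0.23, *mrps-2* from -0.11 to 0.31, *mrps-31* from -0.52 to 0.70 and *mrps-5* from -0.33 to 0.42. After median-of-ratios scaling *mrps-2* was -0.21 and *mrps-5* -0.24, and after quantile normalization they were -0.23 and -0.29. Without both libraries numbered 1, *mrps-2* was -0.053 and *mrps-31* 0.060. Without both numbered 2, *mrps-5* was -0.16. Without both numbered 3, *mrpl-44* was 0.050 and *mrps-31* 0.23. Median-of-ratios scaling moved the median of all genes from 0.21 to -0.05. With the replicate block no call among the named members changed.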
